A study of Homo sapiens with 18 samples.

Results

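The epithelial serine proteases and their inhibitors studied here are 10 genes, taken as the rows of the deposited expression table whose symbol was ST14, PRSS8, PRSS22, TMPRSS2, TMPRSS4, SPINT1, SPINT2, KLK6, KLK10 or KLK11, out of 19849 genes in all. Each symbol matched 1 row and each row held 1 probe set. These enzymes work at the surface of epithelial cells or just outside it. Matriptase, encoded by ST14, is a transmembrane protease that activates itself and passes its activity to prostasin, the lipid-anchored protease encoded by PRSS8, and the pair is held in check by the Kunitz-type inhibitors HAI-1 and HAI-2, encoded by SPINT1 and SPINT2. The cascade is known for maintaining epithelial barriers, for activating sodium channels and for releasing growth factors from their latent forms, and tissue kallikreins form a second, secreted protease network in many epithelia.

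The study profiled transcripts with 18 Affymetrix U133 Plus 2.0 arrays, 3 in each of 6 groups, to compare lung cancer cells before and after an experimentally induced epithelial-mesenchymal transition (EMT). The non-small cell lung cancer lines were A549, HCC827 and NCI-H358, grown in RPMI1640 with serum and glutamine. Mesenchymal derivatives of each line were made with 2 ng/ml TGFβ for 3 weeks according to the labels, and were moved to medium without TGFβ on the day before lysis. Parental cells were the same lines without this induction, and the labels name no vehicle and no culture of matched length for them. The study's methods describe a longer induction for HCC827 and NCI-H358 than for A549, so line and length of treatment cannot be told apart where A549 is set against the others. The arrays of a group were separate cultures made at the same time, so that p-values measure the spread between parallel cultures of 1 line. All values below are log2 expression values after RMA, the authors' normalization, and a log2 difference of 1 is a doubling.

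Markers of each state moved with the labels. E-cadherin (CDH1) fell, with log2 fold changes of -5.81, -2.95 and -3.94 in A549, HCC827 and NCI-H358, while N-cadherin (CDH2) rose by 1.94, 3.26 and 2.04. ZEB1, a repressor of epithelial genes, rose by 0.79, 4.18 and 3.66, and vimentin (VIM) by 0.79, 2.03 and 2.31. Of 10 epithelial markers, 5 fell in A549 and all 10 fell in each of the other lines. Of 8 mesenchymal markers, 7 rose in HCC827 and 7 in NCI-H358, while in A549 6 rose and 1 fell, namely ZEB2 (log2 fold change -0.46, adjusted p = 0.00325), singled out after its value was seen. The mean of 7 blood and endothelial markers lay between 4.45 and 4.88 in every array. Array medians lay between 6.31 and 6.47, and no pair of arrays held identical values.

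Upon EMT most of the protease genes and both inhibitors fell in HCC827 and NCI-H358, whereas in A549 SPINT2 was the single member that fell. In parental A549, SPINT2 lay above 96.26% of all genes and PRSS22 above 52.31%. The other members started lower there, from 15.05% for ST14 to 33.54% for KLK11. How far these low starting signals limited a fall in A549 was not tested. A gene was taken as changed when limma, fitted to all genes and arrays at once, gave a Benjamini-Hochberg adjusted p below 0.05. By this rule 1 of the 10 members fell in A549, where 26.8% of all genes fell. In HCC827 8 members fell, against 25.0% of all genes, and in NCI-H358 9 members fell, against 19.8% of all genes. No member rose in A549 or NCI-H358, where 16.6% and 21.5% of all genes rose, and TMPRSS2 alone rose in HCC827, where 20.8% of all genes rose. In the order A549, HCC827 and NCI-H358, the members' median log2 fold changes were 0.06, -1.53 and -2.53, beside -0.02, 0.01 and 0.02 over all genes. SPINT2 was also the 1 member that changed in the same direction in all 3 lines, and the share of all genes that did so was not computed.

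A gene is said to be called under a stricter rule, the study's own, which asks for more than a 5-fold change and for an adjusted p under 1e-05. No member was called lower in A549, against 0.736% of all genes. The 4 members called lower in HCC827 were ST14, PRSS8, SPINT1 and KLK6, against 1.63% of all genes. The 5 called lower in NCI-H358 were ST14, PRSS8, TMPRSS4, SPINT1 and KLK10, against 1.36% of all genes. Not 1 member was called higher in any line, where the shares of all genes called higher were 1.17%, 1.32% and 0.811% for A549, HCC827 and NCI-H358. ST14, PRSS8 and SPINT1 were called in both HCC827 and NCI-H358, and 0 members were called in all 3 lines. The shares of all genes called in both of these lines, or in all 3, were not computed. These overlaps are therefore a description and cannot be set against the other genes. In bulk samples of this kind, fewer cells that express a gene and less RNA per cell cannot be told apart.

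**Figure D1:**
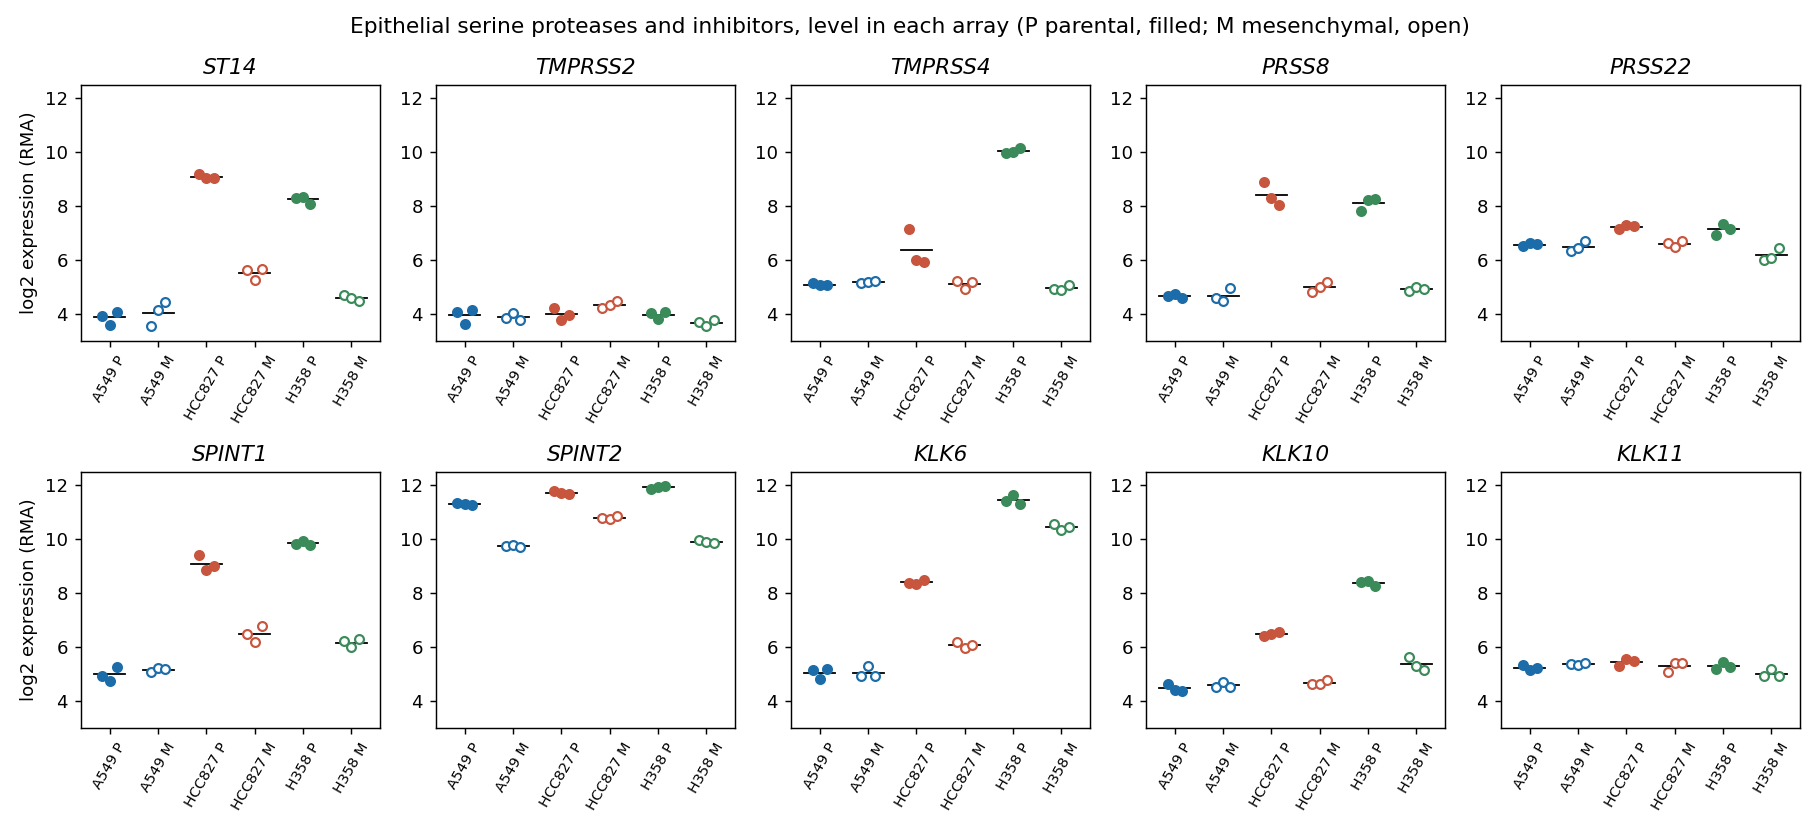
Log2 expression after RMA (y axis) of the 10 members in each of the 18 arrays, by line and state (x axis). Filled points are parental arrays, open points mesenchymal arrays, and bars are group means of 3 arrays. ST14, PRSS8 and SPINT1 were high in parental HCC827 and NCI-H358 only, SPINT2 fell in each line, and TMPRSS2 and KLK11 stayed within 0.65 and 0.44 over the 6 group means.

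ST14, the transmembrane protease at the head of the cascade, fell in HCC827 and NCI-H358 to a similar degree. In HCC827 it stood at 9.18, 9.04 and 9.03 in the parental arrays and at 5.62, 5.26 and 5.67 in the mesenchymal arrays. In NCI-H358 the parental arrays gave 8.32, 8.35 and 8.07 and the mesenchymal arrays 4.71, 4.59 and 4.47. All parental arrays of these lines thus lay above all mesenchymal ones, with at least 2 log2 units between them. A549 arrays lay below every array of the other lines already before treatment, at 3.93, 3.60 and 4.09, and gave 3.55, 4.14 and 4.43 after it, with overlap. The change was -3.57 in HCC827 (95% interval -3.95 to -3.19, 11.9-fold lower, adjusted p = 2.91e-11 in limma) and -3.66 in NCI-H358 (-4.03 to -3.28, 12.6-fold lower, adjusted p = 2.69e-11), while it was 0.17 in A549 (-0.21 to 0.55, adjusted p = 0.486). Without the first mesenchymal A549 array the A549 value was 0.41 (adjusted p = 0.0393). The falls in HCC827 and NCI-H358 differed by -0.09, with an interval from -0.62 to 0.45 (adjusted p = 0.834). Of the 6 groups, parental HCC827 was highest and parental NCI-H358 next (adjusted p = 0.000673), and mesenchymal NCI-H358 still lay 0.55 above mesenchymal A549 (adjusted p = 0.0135).

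PRSS8, which encodes prostasin, fell in the same lines. Its parental HCC827 arrays gave 8.88, 8.32 and 8.06 and its mesenchymal arrays 4.81, 4.98 and 5.17. In NCI-H358 these were 7.83, 8.23 and 8.28 before and 4.86, 5.0 and 4.91 after EMT. Again no mesenchymal array reached a parental one in either line. A549 arrays lay between 4.47 and 4.97 in both states and overlapped. PRSS8 fell 10.8-fold in HCC827 (log2 -3.43, SE 0.18, adjusted p = 4.26e-11) and 9.11-fold in NCI-H358 (log2 -3.19, adjusted p = 1.37e-10), and the A549 difference was -0.00 with an interval from -0.38 to 0.37. The 4 lower groups of PRSS8, both states of A549 and both mesenchymal derivatives, ran from 4.68 to 4.99, and no adjacent pair among them in the order of means passed the test (adjusted p from 0.265 to 0.993).

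TMPRSS4, a transmembrane protease often described in carcinomas, showed the largest log2 fold change among the members. Parental NCI-H358 arrays stood at 9.99, 10.02 and 10.14 and mesenchymal ones at 4.93, 4.87 and 5.07, a 34.2-fold fall (log2 -5.10, 95% interval -5.55 to -4.64, adjusted p = 4.03e-12). Parental HCC827 was uneven, with 1 array at 7.17 and the others at 6.01 and 5.93, all above the mesenchymal arrays at 5.21, 4.93 and 5.19. The HCC827 change was -1.26 (adjusted p = 9.92e-05), and -0.86 without that array. In A549 the parental arrays (5.06 to 5.14) lay just under the mesenchymal ones (5.15 to 5.24), with a change of 0.11 (adjusted p = 0.726). The change in NCI-H358 minus that in HCC827 was -3.84 (interval -4.48 to -3.20, adjusted p = 2.95e-08).

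TMPRSS2, the transmembrane protease known as an androgen-responsive gene of prostate epithelium and for priming viral envelope proteins, gave little signal change in any line. Its signal was low throughout. It lay above 12.1% of all genes in mesenchymal NCI-H358, the lowest group, and above 20.6% in mesenchymal HCC827, the highest. Whether it stood above background is not known. HCC827 arrays gave 4.22, 3.76 and 3.97 before and 4.21, 4.33 and 4.47 after EMT, and overlapped. In NCI-H358 they gave 4.02, 3.81 and 4.06 before and 3.70, 3.56 and 3.79 after, and in A549 4.08, 3.64 and 4.16 before and 3.84, 4.04 and 3.79 after. The NCI-H358 groups lay apart by a narrow margin and the A549 groups overlapped. The rise in HCC827 was 0.35 (adjusted p = 0.0439), and its adjusted p reached 0.206 when single arrays were left out. Changes in NCI-H358 (-0.28, adjusted p = 0.119) and A549 (-0.07, adjusted p = 0.731) did not pass the test.

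PRSS22, a tryptase secreted by airway epithelium, fell modestly in 2 lines. Its arrays stood at 7.14, 7.31 and 7.25 in parental and 6.62, 6.49 and 6.70 in mesenchymal HCC827. In NCI-H358 they stood at 6.95, 7.32 and 7.16 against 6.01, 6.08 and 6.44. The groups did not overlap in either line, whereas the A549 arrays at 6.53, 6.62 and 6.58 overlapped those at 6.35, 6.46 and 6.69. The fall was 1.55-fold in HCC827 (log2 -0.63, adjusted p = 0.000239) and 1.96-fold in NCI-H358 (log2 -0.97, adjusted p = 2.88e-06), and in A549 the change was -0.07 (adjusted p = 0.66).

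Of the inhibitors, SPINT1 (HAI-1), which binds matriptase and prostasin, fell in the same lines as they did. In HCC827 it stood at 9.42, 8.83 and 8.99 in parental arrays and at 6.49, 6.18 and 6.79 in mesenchymal arrays. NCI-H358 gave 9.82, 9.92 and 9.78 before and 6.21, 5.98 and 6.28 after. Both lines showed a gap of at least 2 log2 units between the states. A549 arrays at 4.94, 4.73 and 5.26 overlapped the mesenchymal ones at 5.07, 5.20 and 5.18. SPINT1 fell 6.04-fold in HCC827 (log2 -2.59, interval -2.94 to -2.25, adjusted p = 5.41e-10) and 12.9-fold in NCI-H358 (log2 -3.69, interval -4.03 to -3.34, adjusted p = 7.15e-12), and the A549 change was 0.17 (adjusted p = 0.445). The change in NCI-H358 minus that in HCC827 was -1.09 (adjusted p = 0.00103). Mesenchymal HCC827 and NCI-H358 ended at 6.49 and 6.16, without a difference that passed the test (adjusted p = 0.101), and mesenchymal NCI-H358 lay 1.01 above mesenchymal A549 (adjusted p = 3.5e-05).

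SPINT2 (HAI-2) fell in all 3 lines. Its A549 arrays stood at 11.35, 11.29 and 11.28 before and 9.73, 9.77 and 9.69 after EMT. HCC827 gave 11.78, 11.71 and 11.66 before and 10.76, 10.75 and 10.86 after, and NCI-H358 gave 11.86, 11.94 and 11.98 before and 9.95, 9.88 and 9.85 after. The spread within a group was at most 0.07 (SD), and in all 3 lines every parental array lay above every mesenchymal one. SPINT2 fell 2.98-fold in A549 (log2 -1.58, adjusted p = 9.91e-13), 1.90-fold in HCC827 (log2 -0.92, adjusted p = 8.2e-10) and 4.10-fold in NCI-H358 (log2 -2.03, adjusted p = 5.31e-14). These changes differed in each pair of lines, by 0.65 for HCC827 minus A549 (adjusted p = 6.82e-06), by -0.46 for NCI-H358 minus A549 (adjusted p = 0.000283) and by -1.11 for NCI-H358 minus HCC827 (adjusted p = 1.86e-08).

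Whether protease and inhibitor transcripts moved by equal amounts was then examined. Differences between the log2 values of a pair of members were taken within each array and compared between the states of a line, for 6 pairs chosen after values were seen, which makes 18 comparisons. The level of this difference has no meaning between probe sets, so its shift from the parental mean is given. ST14 and SPINT1 fell by near equal amounts in NCI-H358, where their difference shifted by 0.03 (exact permutation p = 0.8), and shifted by -0.97 in HCC827 (exact permutation p = 0.1). ST14 relative to SPINT2 shifted by -2.65 in HCC827 and by -1.62 in NCI-H358 but by 1.75 in A549, where SPINT2 fell and ST14 did not pass the test. PRSS8 relative to SPINT2 shifted by -2.51, -1.15 and 1.57 in HCC827, NCI-H358 and A549. PRSS8 relative to SPINT1 shifted by -0.84 in HCC827 and by 0.50 in NCI-H358, in opposite directions, and by -0.17 in A549, where the states overlapped. SPINT1 relative to SPINT2 shifted by -1.67, -1.65 and 1.75 in HCC827, NCI-H358 and A549. ST14 relative to PRSS8 shifted by -0.14, -0.47 and 0.17 in the same order, with overlap in each line. In A549 the signals of ST14, PRSS8 and SPINT1 were low in both states, with group means from 3.87 to 5.15. Their own changes there did not pass the test. The A549 shifts against SPINT2 thus came mostly from the fall of SPINT2 itself (log2 fold change -1.58). Signals were also low in mesenchymal cells of the other lines, at 4.59 for ST14 in NCI-H358. PRSS8 stood at 4.99 in mesenchymal HCC827 and at 4.92 in mesenchymal NCI-H358. How far such low signals limited the shifts in these lines was not tested. Apart from those said to overlap and the shift of 0.03, each shift given was free of overlap between states, with an exact two-sided permutation p of 0.1, the smallest that 3 arrays against 3 can give.

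**Figure D2:**
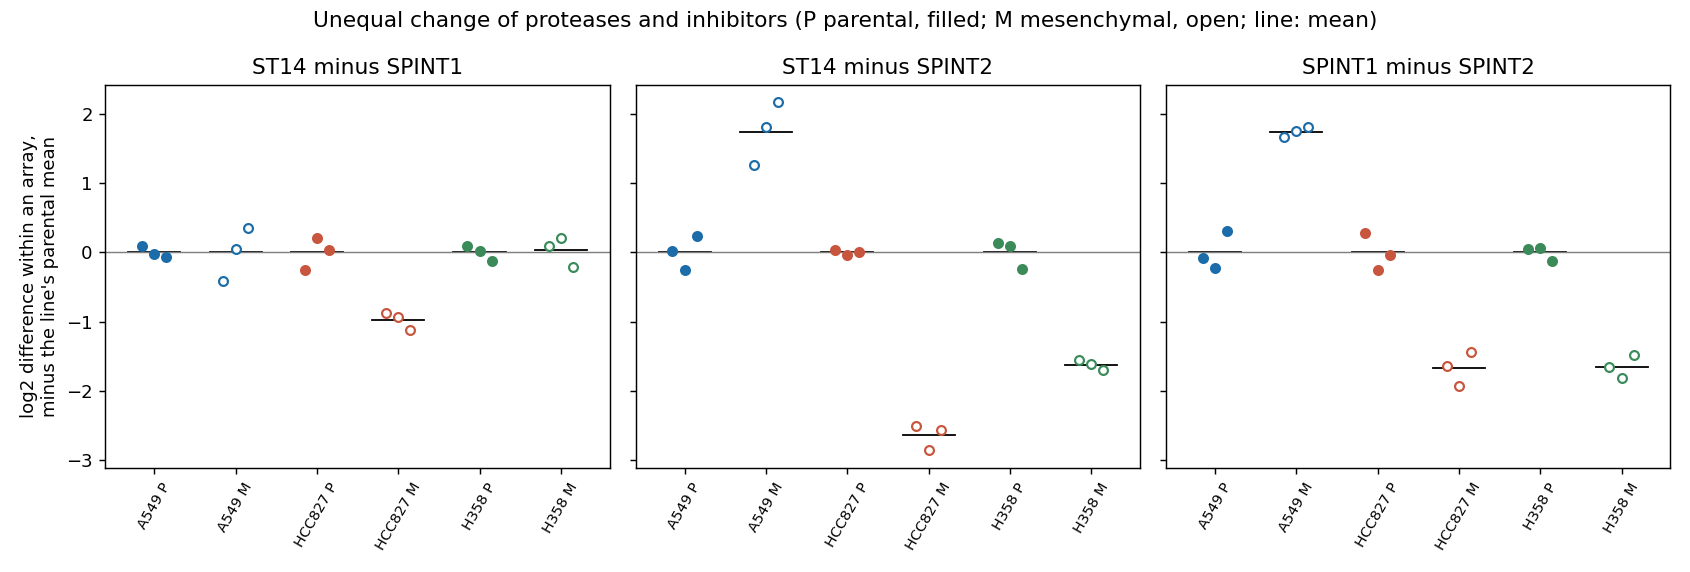
Difference of log2 values between a pair of members within each array, minus the mean of the parental arrays of the line (y axis), by line and state (x axis). Filled points are parental and open points mesenchymal arrays, and bars are means of 3. ST14 relative to SPINT2 shifted by 1.75 in A549 and by -2.65 and -1.62 in HCC827 and NCI-H358, while ST14 relative to SPINT1 shifted by 0.00 in A549 and 0.03 in NCI-H358. The A549 shifts against SPINT2 came mostly from the fall of SPINT2, as ST14 and SPINT1 were low in both A549 states.

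Among the kallikreins, secreted proteases encoded in a cluster on chromosome 19, KLK6 and KLK10 fell in 2 lines and KLK11 hardly moved. KLK6, a trypsin-like kallikrein also abundant in the nervous system, stood at 8.39, 8.35 and 8.49 in parental and 6.17, 5.96 and 6.06 in mesenchymal HCC827. In NCI-H358 it stood at 11.43, 11.62 and 11.30 before and 10.54, 10.33 and 10.45 after. Mesenchymal NCI-H358 arrays thus remained above every parental HCC827 array, by 2.03 in the means (adjusted p = 9.3e-11). A549 arrays lay between 4.79 and 5.27 in both states, with a change of 0.01 (interval -0.24 to 0.26). KLK6 fell 5.09-fold in HCC827 (log2 -2.35, adjusted p = 2.91e-11) and 2.01-fold in NCI-H358 (log2 -1.01, adjusted p = 1.73e-06), and the falls differed by 1.34 (adjusted p = 5.55e-06). Its HCC827 fold lay just above the limit of 5, and was 4.94 without the third parental array and 4.91 without the second mesenchymal array.

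KLK10, a kallikrein often lost in tumours, fell further in NCI-H358 than in HCC827. Its arrays stood at 8.41, 8.46 and 8.24 in parental and 5.61, 5.30 and 5.14 in mesenchymal NCI-H358. In HCC827 they stood at 6.42, 6.48 and 6.55 against 4.63, 4.62 and 4.77. A549 arrays at 4.61, 4.39 and 4.37 overlapped the mesenchymal ones at 4.49, 4.69 and 4.53, whereas neither of the other lines showed overlap. KLK10 fell 8.11-fold in NCI-H358 (log2 -3.02, adjusted p = 5.32e-13) and 3.51-fold in HCC827 (log2 -1.81, adjusted p = 2.65e-10), a difference of -1.21 (adjusted p = 6.5e-06), and in A549 the change was 0.11 (adjusted p = 0.441). KLK11 arrays lay between 4.91 and 5.55 over all 6 groups. Its change was 0.14 in A549 (adjusted p = 0.321) and -0.16 in HCC827 (adjusted p = 0.259). In NCI-H358 it was -0.30 (adjusted p = 0.0348), with overlapping arrays, and this call was lost without any 1 of 4 of the line's arrays (adjusted p from 0.0595 to 0.162). No adjacent pair in the order of the KLK11 group means passed the test (adjusted p from 0.0964 to 0.948).

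**Figure D3:**
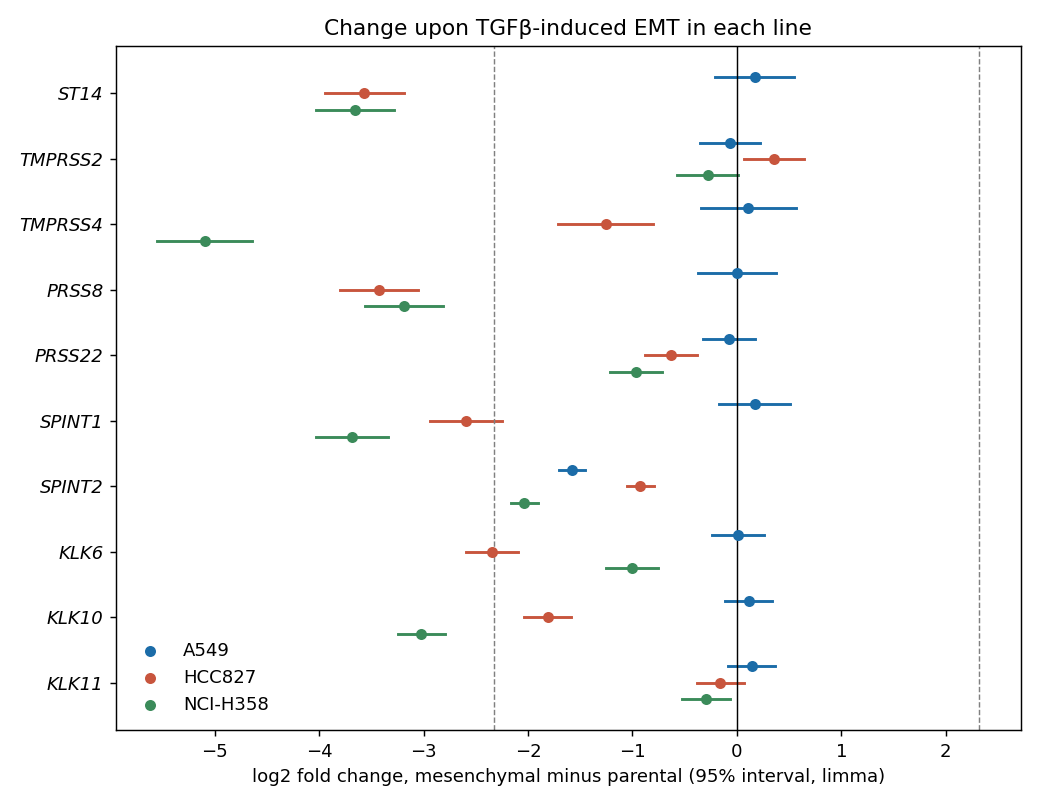
Log2 fold change of each member, mesenchymal minus parental (x axis), in A549, HCC827 and NCI-H358, with 95% intervals from limma on 3 arrays per group. Dashed lines mark a fold change of 5 in either direction. SPINT2 is the single member whose A549 interval lies away from 0, and TMPRSS4 in NCI-H358 is the farthest from 0 at -5.10.

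Promoter sequence could be shown for 4 of the 10 members, from the RefSeq promoter table (GRCh38.p14). The 250 bases before the annotated start are printed 5′ to 3′ in the direction of the gene, for an inhibitor and 2 kallikreins that fell and for KLK11, which had the smallest changes of the 3 kallikreins in HCC827 and NCI-H358. They were searched for CACCTG on both strands, the sequence bound by ZEB and SNAI repressors, and for AACCGGTT, a palindrome bound by grainyhead factors. Capitals mark a match.
SPINT1, chr15:40843798-40844047, plus strand: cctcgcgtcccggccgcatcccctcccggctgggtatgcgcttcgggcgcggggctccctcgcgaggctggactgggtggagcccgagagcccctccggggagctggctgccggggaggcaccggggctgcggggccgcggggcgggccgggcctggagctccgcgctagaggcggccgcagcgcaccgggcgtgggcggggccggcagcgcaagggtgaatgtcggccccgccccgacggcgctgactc
KLK6, chr19:50969592-50969841, minus strand: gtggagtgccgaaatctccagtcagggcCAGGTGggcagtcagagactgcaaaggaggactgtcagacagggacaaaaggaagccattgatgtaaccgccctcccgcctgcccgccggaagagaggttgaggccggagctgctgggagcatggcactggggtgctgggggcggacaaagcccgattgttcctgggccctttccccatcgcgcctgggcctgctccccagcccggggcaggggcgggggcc
KLK10, chr19:51019862-51020111, minus strand: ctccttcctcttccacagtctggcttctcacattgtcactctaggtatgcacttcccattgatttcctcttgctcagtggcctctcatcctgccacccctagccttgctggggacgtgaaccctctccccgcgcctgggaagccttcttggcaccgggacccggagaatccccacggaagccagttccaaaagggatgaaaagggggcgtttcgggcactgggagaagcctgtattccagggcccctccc
KLK11, chr19:51027647-51027896, minus strand: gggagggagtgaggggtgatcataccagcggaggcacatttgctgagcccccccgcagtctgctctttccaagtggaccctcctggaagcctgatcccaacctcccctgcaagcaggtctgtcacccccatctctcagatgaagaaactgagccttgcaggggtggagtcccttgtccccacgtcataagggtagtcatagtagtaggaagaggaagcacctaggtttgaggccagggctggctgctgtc

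KLK6 held CAGGTG, the reverse complement of CACCTG, starting 222 bases before its start, and both KLK10 windows and the first windows of KLK11 and SPINT1 held neither sequence. Second annotated starts gave 2 further matches, each shown within its flanking bases.
SPINT1, chr15:40844439-40844468, plus strand, motif starting 26 bases before the second start: tcccgggctgatCAGGTGtgtctcctcctc
KLK11, chr19:51026617-51026641, minus strand, motif starting 13 bases before the second start: cctggtgcctggCACCTGgcgctcc
CACCTG or its complement was present in 17.5% of the 35116 promoter windows of this length, and AACCGGTT in 0.117%, and none of the 7 member windows held the latter. A match is a description of the sequence and not of a factor bound there.

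The change itself was compared between lines for every member. It differed between HCC827 and A549 for 8 members, against 42.2% of all genes, and between NCI-H358 and A549 for 9 members, against 42.8%, with both comparisons using the same A549 arrays. Between NCI-H358 and HCC827 it differed for 6 members, against 37.9% of all genes. ST14, PRSS8, PRSS22 and KLK11 were those whose difference between these last lines did not pass this test, with intervals of the difference from -0.62 to 0.45, from -0.29 to 0.77, from -0.69 to 0.02 and from -0.46 to 0.18. TMPRSS4, SPINT1, SPINT2 and KLK10 fell further in NCI-H358 and KLK6 fell further in HCC827.

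Over the 6 group means, ST14 and PRSS8 ran most closely together of all pairs of members, with a Pearson correlation of 0.979. ST14 with SPINT1 gave 0.967, PRSS8 with SPINT1 gave 0.962 and TMPRSS4 with KLK10 gave 0.949. The lowest was -0.40, between TMPRSS2 and KLK6. These values describe 6 points that share their lines and their arrays. Among 9052 other genes with group means spanning at least 1 log2 unit, the patterns most like ST14 were those of the splicing regulator ESRP2 (0.997) and of DOCK3 (0.996), and those most like PRSS8 were the zinc finger repressor OVOL2 and ERP27 (both 0.998). PAK6 (0.994) was among the closest to SPINT1, and SPINT2 was most like MB (0.991) and DEPDC1B (0.983). TMPRSS4 was closest to CAPS and FBP1 (both 0.997), KLK6 to ACTR3C (0.999) and SUMO3 (0.995), and KLK10 to SCIN (0.997) and RP1 (0.996). PRSS22 was closest to GCH1 (0.994) and SLC39A11 (0.987). TMPRSS2 and KLK11, whose own group means spanned 0.65 and 0.44, had the lowest best matches, with MDN1 at 0.977 and PLSCR1 at 0.985 (second were ZNF692 at 0.971 and SKAP2 at 0.976). These matches were picked as the closest of 9052 genes over 6 points, so high values can come from the picking alone. They are a description and were not tested.

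Relatives of the members were counted by the same tests and are to be read beside the shares of all genes, which for A549, HCC827 and NCI-H358 were 26.8%, 25.0% and 19.8% lower and 16.6%, 20.8% and 21.5% higher. Of 20 other membrane serine proteases 15 were in the table, and of these 0 changed in A549, 4 fell and 2 rose in HCC827, and 2 fell and 1 rose in NCI-H358, with medians of 0.03, 0.04 and -0.02. The 1 gene called was TMPRSS11E, a transmembrane protease of squamous epithelia named here after its values were seen, which fell in NCI-H358 (log2 fold change -4.26) and HCC827 (-1.87) and gave 0.09 in A549 (adjusted p = 0.414). Of 12 other tissue kallikreins 11 were in the table and 0 were called. Of these kallikreins 1 rose in A549, 2 fell and 1 rose in HCC827, and 1 fell and 1 rose in NCI-H358. Of 19 other Kunitz, Kazal and WAP-type inhibitors 16 were in the table. In A549 3 of them fell and 7 rose, in HCC827 6 fell and 2 rose, and in NCI-H358 6 fell and 1 rose. Called among them, and named after their values were seen, were SPINK1 in HCC827 (-3.10), SPINK5 in NCI-H358 (-2.62) and TFPI2, a Kunitz inhibitor of the extracellular matrix, in NCI-H358 (2.45). TFPI2 also rose in A549 (1.98, adjusted p = 1.18e-10) and fell in HCC827 (-0.37, adjusted p = 0.00958).

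Substrates and receptors of the cascade included genes with larger changes than the enzymes. All 16 listed were in the table, and 5 fell and 3 rose in A549, 9 fell and 1 rose in HCC827, and 7 fell and 3 rose in NCI-H358, beside the same shares of all genes as above, with median log2 fold changes of -0.06, -1.22 and -0.08. SCNN1A, the alpha subunit of the epithelial sodium channel that prostasin activates, stood at 12.45, 11.96 and 11.998 in parental and 5.37, 5.25 and 5.48 in mesenchymal HCC827. Those groups lay over 6 log2 units apart. SCNN1A fell in HCC827 (log2 fold change -6.77, adjusted p = 5.44e-17), in NCI-H358 (-4.85, adjusted p = 4.85e-15) and in A549 (-1.32, adjusted p = 5.78e-08). The channel subunits SCNN1B and SCNN1G, named after their values were seen, did not pass the test in any line. Their group means were low, from 4.04 to 4.25 for SCNN1B and from 2.63 to 3.01 for SCNN1G. The adhesion molecule EPCAM, which matriptase can cleave, fell in each line, with log2 fold changes of -3.03, -2.69 and -2.92 in A549, HCC827 and NCI-H358. Its junctional partner CLDN7 fell in HCC827 (-3.38) and NCI-H358 (-2.96) and was -0.15 in A549 (adjusted p = 0.541). PDGFC, a growth factor secreted in latent form, rose in all of them, by 4.29, 2.37 and 0.45 in the same order.

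The following substrates and receptors, each called in 1 line, were named after their values were seen. HGF, the ligand of the MET receptor, fell by 3.52 in HCC827 and gave -0.24 and 0.06 in A549 and NCI-H358, which did not pass the test. MST1R, the receptor of macrophage-stimulating protein, fell in NCI-H358 (-2.91), HCC827 (-1.70) and A549 (-1.02). The cell-surface glycoprotein CDCP1 fell in NCI-H358 (-2.50) and HCC827 (-0.99) and rose in A549 (1.74).

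**Figure D4:**
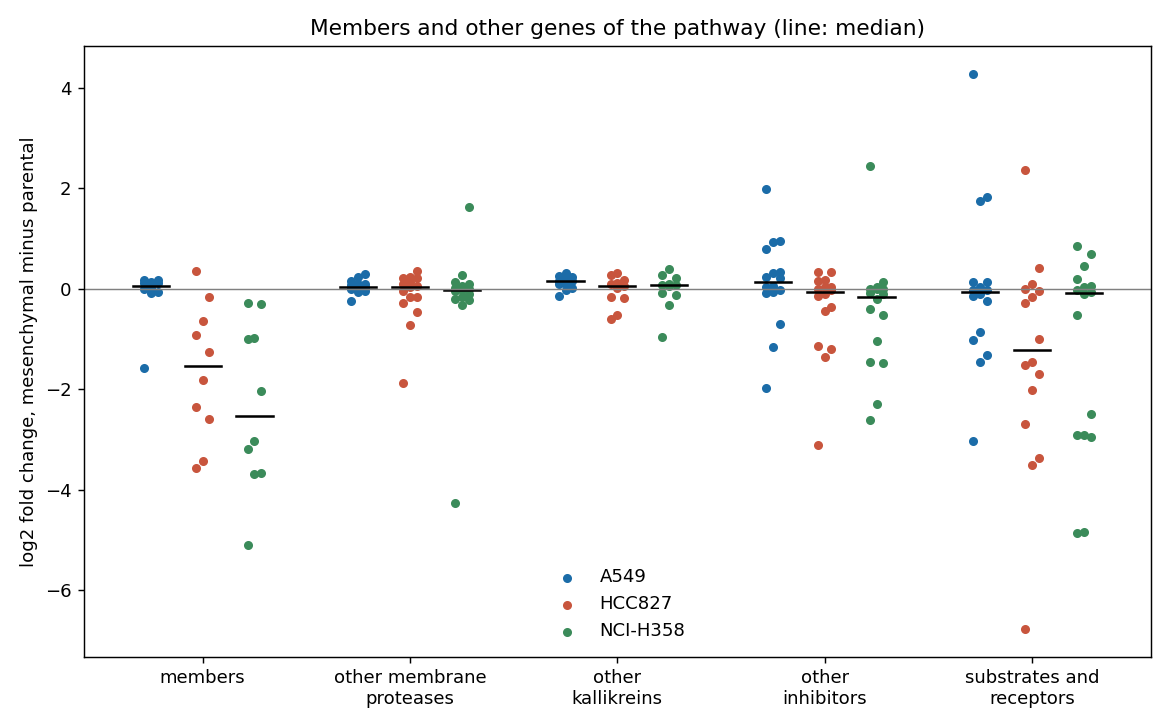
Log2 fold change, mesenchymal minus parental (y axis), of the 10 members and of the genes of 4 related lists (x axis) in A549, HCC827 and NCI-H358. Each point is 1 gene and bars are medians. The members' medians were 0.06, -1.53 and -2.53, while those of the other membrane proteases stayed between -0.02 and 0.04, and the lowest point is SCNN1A in HCC827 at -6.77.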

How the data were processed

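Total RNA of 18 cultures was hybridised to Affymetrix U133 Plus 2.0 arrays. The authors normalized the arrays with RMA in R and deposited log2 values of 19849 genes. Each gene has 1 probe set, by a rule not given in the sources used here. Groups came from the sample labels, and 0 columns were left without a sample. A single limma model (version 3.58.1, R 4.3.3) with 6 group means and no covariates gave the changes, with Benjamini-Hochberg adjustment over all genes, after a test on simulated data. Changed means an adjusted p below 0.05. Called means more than a 5-fold change with an adjusted p under 1e-05, the study's thresholds. The members and gene lists were chosen with earlier results of these data known. Genes named were all members, list genes called in at least 2 lines in 1 direction, the 2 genes most like each member over the 6 group means, and CDH1, CDH2, VIM and ZEB1. Further genes were named after their values were seen, as stated where they appear. Other thresholds, fits, scalings and left-out arrays were tried. Precision is limited by having 3 arrays in a group, and sequencing depth does not apply. Promoter sequences are from RefSeq (GRCh38.p14), and all 10 gene IDs were found in the RefSeq gene table. Some genes that met the naming rule are not reported here.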

Additional observations from a re-analysis of the deposited data

Results flagged for a closer look

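The change upon EMT differed between lines, in limma contrasts, for every member in at least 1 pair of lines. The share of all genes that differed in at least 1 pair was not computed. Single pairs differed for 42.2% (HCC827 minus A549), 42.8% (NCI-H358 minus A549) and 37.9% (NCI-H358 minus HCC827) of all genes. The members' differences of log2 fold changes are given here as values. HCC827 minus A549 gave -3.74 for ST14, -3.43 for PRSS8, -0.56 for PRSS22, -1.37 for TMPRSS4, -2.76 for SPINT1, 0.65 for SPINT2, -2.36 for KLK6 and -1.92 for KLK10 (adjusted p from 2.94e-09 to 0.012). NCI-H358 minus A549, which uses the same A549 arrays, gave -3.83 for ST14, -3.19 for PRSS8, -0.89 for PRSS22, -5.21 for TMPRSS4, -3.86 for SPINT1, -0.46 for SPINT2, -1.02 for KLK6, -3.13 for KLK10 and -0.44 for KLK11 (adjusted p from 4.36e-11 to 0.0274). NCI-H358 minus HCC827 gave -0.63 for TMPRSS2, -3.84 for TMPRSS4, -1.09 for SPINT1, -1.11 for SPINT2, 1.34 for KLK6 and -1.21 for KLK10 (adjusted p from 1.86e-08 to 0.0151). Among the differences that passed the test, that of SPINT2 was the positive one for HCC827 minus A549, and that of KLK6 for NCI-H358 minus HCC827. If the length of treatment differed between lines, it cannot be told apart from line in the contrasts with A549. Members other than SPINT2 and PRSS22 also had low signals in parental A549. How far this shaped those contrasts was not tested.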

How the results depend on the processing

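No paired analysis was possible because the labels carry no replicate numbers. With a fold limit of 2 in place of 5, 1 member was called in A549. With a limit of 10, 2 were called in HCC827 and 3 in NCI-H358. With the limit kept at 5, the HCC827 count fell from 4 to 3 under median centring, quantile normalization or a separate fit per line. The shares of all genes called at these other limits and settings were not computed. The study's methods name limma for the arrays, and Student's t-test for data without another stated method. At the strict thresholds the t-test called 0 in HCC827 and 0 in NCI-H358. With 3 arrays against 3 it has few degrees of freedom, so an adjusted p under 1e-05 is hard for it to reach. No conclusion is drawn from these counts of 0. At the study's general threshold that test passed 2 members in A549 and 8 in each of the other lines (all genes, A549 first: 45.5%, 43.6% and 44.9%), and 1, 7 and 8 after Benjamini-Hochberg adjustment (all genes: 36.7%, 34.7% and 36%). Leaving out each array in turn gave 1 to 2 members changed in A549, the second being ST14 without the first mesenchymal array. Changes that turned sign were all in A549 and failed the test in the full data: over left-out arrays ST14 ran from -0.022 to 0.41, PRSS8 from -0.15 to 0.10, TMPRSS2 from -0.23 to 0.032 and KLK6 from -0.11 to 0.076. Centring arrays on their median gave 0.065 for PRSS8, and quantile normalization gave 0.0028 for PRSS22 and -0.028 for KLK6. The HCC827 rise of TMPRSS2 failed without any 1 of 7 arrays (adjusted p from 0.0513 to 0.206). Of 30 changes, 27 kept direction and side of the threshold with a separate fit per line, 30 with robust eBayes and 29 with an intensity trend. The cause of these moves was not tested. The deposited values carry no detection calls, so whether low signals stood above background is not known. Such signals include ST14 and most other members in A549, and TMPRSS2 and KLK11 in every group. They also include PRSS8 and TMPRSS4 in mesenchymal HCC827 and NCI-H358, KLK10 in mesenchymal HCC827 and ST14 in mesenchymal NCI-H358. Group means of these mesenchymal signals ran from 4.59 to 5.11. How far this shaped the size of the falls was not tested.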
